A study of Mus musculus with 6 samples.

Results

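EGFRvIII-driven mouse glioma cells were compared with each other, array by array, to see which functions of these cells stayed constant and which spread among samples of one kind. The samples were the 4 labelled EGFRvIII, out of 6 in the series, and no contrast with the other driver of the series was made. EGFRvIII is a truncated form of the epidermal growth factor receptor that signals without ligand. All 4 samples carried the strain label BALBc INK4a -/-, so the loss of the tumour suppressor locus INK4a was shared by every array. Per the labels, neural progenitors of E14 embryos received EGFRvIII together with the reporter DsRed from a retroviral vector, were grafted into the brains of adult BALBc mice, and were recovered by dissociating the tumours once symptoms appeared. The tissue label reads dsRed-positive glioma cells, the stage is high-grade for all 4, and reporter-positive cells were sorted. The labels name EGFP as the reporter in another field, and call the cells cultured in some fields and sorted in others. They number the samples as biological replicates 1 to 4, and name neither the animals nor the pools of progenitors behind them. Total RNA was amplified to cDNA from a small input, and each sample was read on 1 Affymetrix array. The number of arrays limits the precision of every spread given here: with 4 arrays, the 95% interval of a standard deviation (SD) runs from 0.566 to 3.73 times its value.

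The host brain and the tumour share a small set of neural lineages. Oligodendrocyte progenitors divide, express Pdgfra, Olig1, Olig2 and Sox10, and mature into oligodendrocytes that make myelin proteins such as Mbp and Mag. Astrocytes take up glutamate and buffer ions and water through Slc1a3, Slc4a4, Mlc1 and Aqp4, and progenitors can be steered to either fate. Interferons are secreted antiviral proteins. They act through surface receptors, JAK kinases and STAT factors to induce a battery of interferon-stimulated genes, including GTPases of the Irgm and Gbp families, the antiviral Ifit and Oas proteins, and the antigen-presentation machinery of MHC class I.

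Values are log2 intensities from RMA, a method that corrects the background, quantile-normalizes the arrays and summarises the probes of a probe set. Levels are therefore relative to the other genes of an array, and RMA compresses the folds of dim genes. Where 4 values are given for a gene, they are those of replicates 1, 2, 3 and 4 in this order. Of 20380 probe sets with 1 gene symbol, the brightest for each gene gave 12393 genes measured. Of these, 6412 genes (51.7%) had a mean above 6.77, the median of all probe set means, and are called kept. The range of a gene is its highest minus its lowest array, so a range of 1 is a 2-fold span and a range of 2 a 4-fold span.

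Replicate 2 stood apart from the other arrays. It held 38.7% of the summed squared deviation of the kept genes from their means, against 26.1% in replicate 3, 17.7% in replicate 1 and 17.5% in replicate 4. The number of kept genes that differed by at least 2-fold between a pair of arrays was lowest for replicates 1 and 4, at 111 genes, and highest for replicates 2 and 3, at 383 genes. The arrays also differed in sex-linked genes. Xist, the RNA that coats the inactive X chromosome, stood at 3.85, 4.46, 11.71 and 12.34, and the Y-linked demethylase gene Kdm5d at 9.40, 8.97, 3.39 and 3.58. Replicates 1 and 2 thus had a high Y-linked and a low Xist signal, and replicates 3 and 4 the reverse. X-linked genes made up 3.71% of the kept genes with a range of at least 1 (23 of 620) and 3.29% of all kept genes (211 of 6412). Cdkn2a, the gene of the INK4a locus, stood at 3.78, 3.78, 3.70 and 3.78, far below the median of 6.77 in every array. The labels and files do not tell whether its single probe set lies within the deleted sequence. In cells sorted and pooled for bulk RNA, fewer cells of a type and less RNA per cell cannot be told apart.

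Most genes varied little among the 4 arrays. The median SD of the kept genes was 0.19, with quartiles of 0.13 and 0.28, and the median range was 0.42. A range under 0.25 was found in 1312 genes (20.5%). A range of at least 1 was found in 620 genes (9.67%), and a range of at least 2 in 137 genes (2.14%). Over all measured genes the shares were 9.77% (1211 of 12393) and 2.33% (289 of 12393). These shares are the background for the counts of list members below. Without replicate 2, 327 kept genes had a range of at least 1 and 39 a range of at least 2. As a background for the orders below, the highest array of a kept gene was replicate 1 in 23.8%, replicate 2 in 28.8%, replicate 3 in 30.9% and replicate 4 in 16.5% of genes. The lowest was replicate 1 in 20.3%, replicate 2 in 26.4%, replicate 3 in 21.9% and replicate 4 in 31.3%. Over all measured genes the highest was replicate 1 in 22.5% and replicate 2 in 26.7%, and the lowest was replicate 4 in 26%. Dim genes spread more: the median SD was 0.23 in the dimmest 10% of the kept genes and 0.13 in the brightest 10%.

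**Figure D1:**
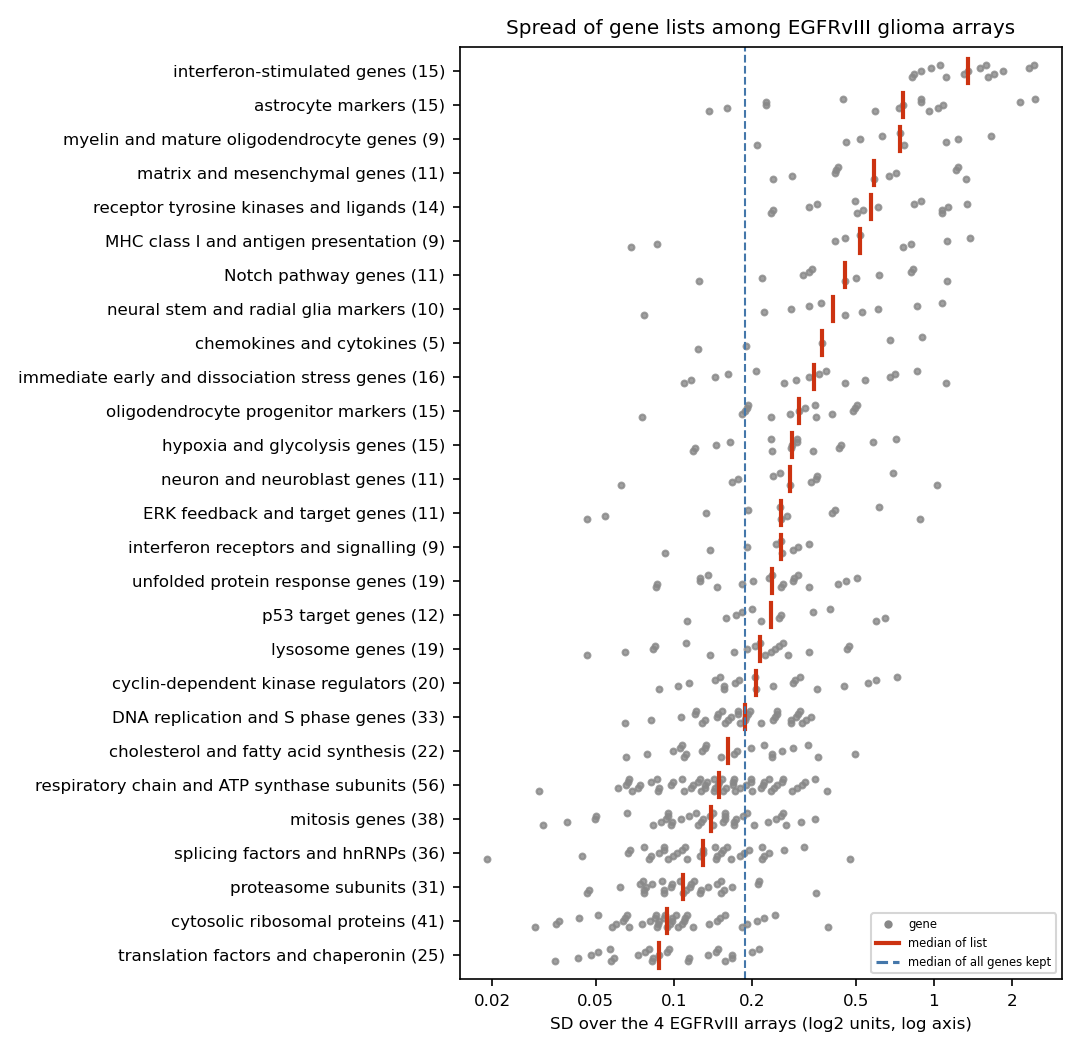
SD over the 4 EGFRvIII arrays of each kept gene (grey points, log2 units, log axis) in 27 gene lists, with the number of kept members in brackets. Red bars are list medians and the dashed line is the median of all kept genes, 0.19. Interferon-stimulated genes, astrocyte markers and myelin genes lie at the top, and translation, ribosome and proteasome genes at the bottom. Genes that were kept only through a high array have to differ.

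The steadiest functions were those of the general machinery of the cell. No ribosomal protein gene of 43 measured had a range of at least 1, nor did any of 31 proteasome subunits, 25 translation factors and chaperonin subunits or 57 subunits of the respiratory chain and ATP synthase. The median SD of kept members was 0.094 for ribosomal proteins, 0.11 for the proteasome, 0.087 for translation and 0.15 for respiration. Because these genes are bright and bright genes spread less, their SDs were also divided by the median SD of genes of like brightness, taken over 10 brightness classes. The median of this ratio was 0.71 for ribosomal proteins, 0.69 for the proteasome, 0.66 for translation, 0.82 for splicing and 1.04 for respiration. The first 4 lists were thus steadier than genes of like brightness, and the respiratory genes were not.

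The widest ranges in these lists were still below 2-fold, except for a splicing factor. Rpl39, a protein of the large ribosomal subunit, reached 8.05 in replicate 1 and 7.20 to 7.40 in the others. Psmd7, a subunit of the proteasome lid, had a range of 0.77. Cyc1, cytochrome c1 of complex III, stood at 9.66, 10.30, 10.58 and 10.06. It was highest in replicate 3, as were 40 of the 56 kept respiratory genes, when 30.9% of all kept genes were highest there. The list mean was 11.42 in replicate 3 and 11.16 to 11.22 in the other arrays, a small shift shared by many subunits. Srsf1, a serine/arginine-rich splicing factor, had a range of 1.09, but its other 5 bright probe sets had ranges of 0.12 to 0.62.

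Among the brightest kept genes (1283 of the 6412), the 10 with the smallest SD ranged over 0.064 or less. G3bp2, a stress-granule RNA-binding protein, stood at 10.73, 10.74, 10.76 and 10.75. Pafah1b1, a regulator of the motor dynein, stood at 11.01, 11.00, 10.97 and 11.00. Their ranges of 0.026 and 0.037 were the smallest among these 10 in the deposited values, where the median SD of the class was 0.14. The other 8 had ranges of 0.040 to 0.064: the core spliceosome protein Snrpg, the sorting nexin Snx12, the small GTPases Cdc42 and Ran, Leng8, the retention receptor Kdelr2, the coatomer subunit Copg1 and the ATPase Vcp. They were chosen for their small SD, and their other bright probe sets were less steady. Those of G3bp2 had ranges of 0.19 and 0.46, and those of Pafah1b1 of 0.15, 0.32 and 0.70. Among the other genes with such probe sets, the widest range per gene ran from 0.086 (Kdelr2) to 0.48 (Cdc42). With each array centred on its median, the range of G3bp2 was 0.123 and the range of Pafah1b1 0.156, above the range of Leng8 at 0.104, so the order within these 10 depends on the centring.

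Genes of cell division were as steady as the general machinery. All 38 measured mitosis genes were kept, none had a range of at least 1, and their median SD was 0.14. The list mean was 9.29, 9.33, 9.20 and 9.37 in replicates 1 to 4. Mki67, the proliferation marker Ki-67, stood at 12.61, 12.61, 12.55 and 12.58. Cdk1, the kinase that drives entry into mitosis, stood at 9.82, 9.91, 9.92 and 9.84. Their ranges were 0.07 and 0.10, and no array stood out. The widest mitosis range, 0.79, was that of Ccnb2, a mitotic cyclin, at 7.86, 7.36, 7.54 and 8.15. Cks2, a subunit of cyclin-dependent kinases, had a range of 0.73, with its highest value in replicate 2. Its other bright probe set had a range of 0.20 and was highest in replicate 3.

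DNA replication and S phase genes also stayed within a 2-fold span, but their order among the arrays was shared. None of 37 measured genes had a range of at least 1, and the 33 kept ones had a median SD of 0.19. Of the 37, 30 were lowest in replicate 1, when 20.7% of all measured genes were lowest there. Of the same 37, 20 were highest in replicate 4 and 14 in replicate 3, when 24.3% and 26.5% of all measured genes were. The list mean was 8.57, 8.75, 8.90 and 8.92. Mcm3, a subunit of the replicative helicase, stood at 9.57, 9.90, 10.26 and 10.13, and Pcna, the sliding clamp of the DNA polymerases, at 12.21, 12.32, 12.52 and 12.53. Cdc6, which loads the helicase, stood at 6.94, 7.09, 7.37 and 7.65. In each of these 3 genes replicates 1 and 2 were below replicates 3 and 4, and the ranges were 0.69, 0.32 and 0.70.

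Some genes that gate the cycle varied more than the machinery they control. The list of cyclin-dependent kinase regulators also holds Mycl, which is not itself a kinase regulator. Of its 25 measured members, 6 had a range of at least 1, against 9.77% of all measured genes. So did 4 of the 20 kept, against 9.67% of all kept genes. Without replicate 3, 3 of the 25 did. The kept members had a median SD of 0.21, near the 0.19 of all kept genes. Cdkn1a, the kinase inhibitor p21, stood at 8.44, 9.67, 8.74 and 8.37, highest in replicate 2. Ccnd3, a D-type cyclin, stood at 8.54, 9.62, 9.26 and 9.25, lowest in replicate 1. Mycl, a transcription factor of the Myc family, stood at 8.74, 8.44, 7.12 and 7.79, lowest in replicate 3. Ccnd2, another D-type cyclin, was highest in replicate 3 at 12.19, against 11.00 to 11.29 in the others, and 5 of its 6 other bright probe sets were also highest in replicate 3, with ranges of 1.00 to 1.39, while 1 had a range of 0.35. Ccnd1, the cyclin induced by growth factor signalling, ranged over 0.37 and Cdk4, its kinase partner, over 0.35.

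Known target genes of p53 were shifted in replicate 2 by a small amount. Of 12 kept targets, 10 were highest there, against 28.8% of all kept genes. A range of at least 1 was found in 2 of the 12, against 9.67% of all kept genes, but in none once replicate 2 was left out. Gadd45a, a stress-response gene, stood at 7.56, 8.76, 7.33 and 7.56. Cdkn1a, described above, was the other gene. Plk2, a kinase of the polo family, stood at 8.84, 9.81, 9.42 and 9.42. The list mean over 18 measured targets was 8.13 in replicate 2 and 7.75 to 7.81 in the others.

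The progenitor identity of the cells was present in every array. Markers of oligodendrocyte progenitors had a list mean of 10.92, 11.11, 10.86 and 11.33, and 15 of the 16 measured were kept. A range of at least 1 was found in 4 of the 16, against 9.77% of all measured genes, and no kept member had a range of 2. Olig1 and Olig2, transcription factors of this lineage, ranged over 0.43 and 0.41. Ptprz1, a receptor phosphatase, ranged over 0.14, or 0.43 and 0.75 in other bright probe sets. Sox10, which acts with Olig1 and Olig2, stood at 11.80, 12.04, 11.21 and 11.63. Sox10 was highest in replicate 2 and lowest in replicate 3.

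The 4 progenitor markers that spread had no highest or lowest array common to all 4. Of the 16 measured markers, 7 were highest in replicate 4 and 7 lowest in replicate 3, when 24.3% and 24.9% of all measured genes were. Pdgfra, the receptor for platelet-derived growth factor A, stood at 12.11, 12.17, 11.76 and 12.94, highest in replicate 4 and lowest in replicate 3. Nkx2-2, a homeodomain factor of the lineage, stood at 11.54, 11.07, 10.36 and 11.14, also lowest in replicate 3. Chst11, a chondroitin sulfotransferase, stood at 8.67, 9.38, 9.21 and 9.90, highest in replicate 4 and lowest in replicate 1. Matn4, a matrilin of the matrix, was below the brightness limit on average, and stood at 5.04, 7.70, 5.89 and 7.68. Replicates 2 and 4 were nearly alike and high in Matn4. Leaving out replicate 1, 3 or 4 left 2 of the 16 with a range of at least 1.

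Myelin genes spread far more, and many of them in the same order. Of 18 measured genes of myelin and mature oligodendrocytes, 12 had a range of at least 1 and 6 a range of at least 2, as did 8 and 3 of the 9 kept. Their mean was 7.66, 7.93, 6.93 and 7.35. Of the 18, 10 were highest in replicate 2 and 10 were lowest in replicate 3, when 26.7% and 24.9% of all measured genes were. Mbp, myelin basic protein, stood at 9.42, 11.92, 7.95 and 9.28, a 15.7-fold span. Mag, the myelin-associated glycoprotein, stood at 6.23, 8.28, 4.64 and 5.41. Cldn11, the tight-junction claudin of myelin, stood at 9.04, 9.99, 7.01 and 8.58. In all 3, replicate 2 was highest, replicate 1 second and replicate 3 lowest. All 8 probe sets of Mbp were highest in replicate 2 and lowest in replicate 3, with ranges of 1.40 to 3.98.

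Enzymes and regulators of myelination followed this order to different degrees. Fa2h, which hydroxylates the fatty acids of myelin lipids, stood at 9.06, 9.71, 7.12 and 8.34. Cnp, a phosphodiesterase of oligodendrocytes, stood at 12.40, 12.71, 11.50 and 12.05, and Sirt2, a deacetylase of the same cells, at 11.96, 12.67, 11.12 and 11.89. All 3 were again highest in replicate 2 and lowest in replicate 3. Myrf, the transcription factor that drives myelin genes, stood at 6.09, 6.73, 4.12 and 5.53, below the brightness limit on average and in the same order. Ugt8a, which makes the myelin lipid galactocerebroside, was highest in replicate 1 at 10.81 and lowest in replicate 3 at 9.73. Tmem98, a membrane protein, ran the other way, at 8.43, 7.29, 8.94 and 7.70. Bmp4, a secreted factor that newly committed cells make, was highest in replicate 1, at 7.95, 5.62, 5.50 and 6.48. Mog and Mobp, late myelin genes, stayed between 3.33 and 4.47 in every array. Without replicate 2, 10 of the 18 still had a range of at least 1, and without replicate 3, 7 did.

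**Figure D2:**
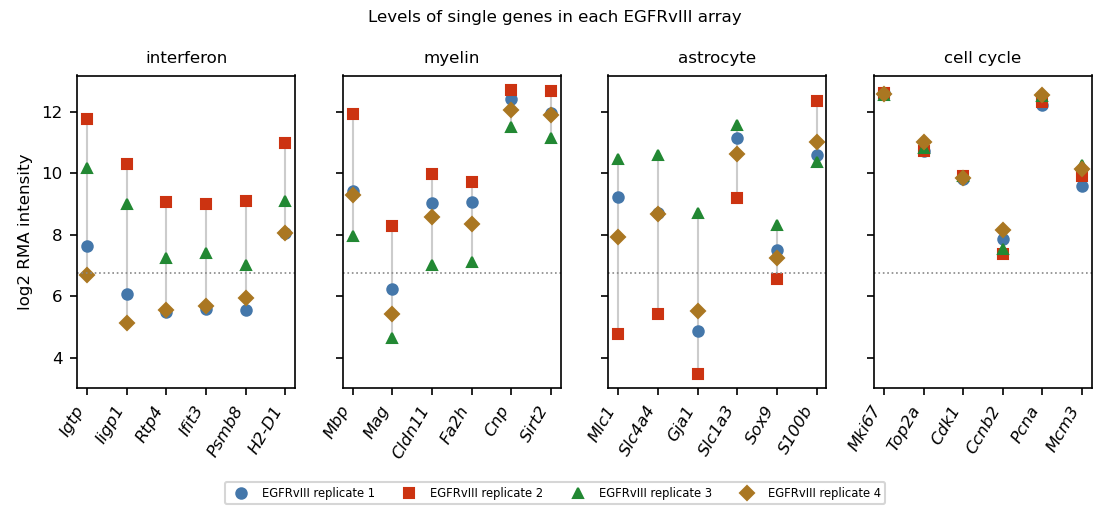
Log2 RMA intensity of single genes in each of the 4 EGFRvIII arrays, in panels of interferon, myelin, astrocyte and cell cycle genes; lines join the lowest and highest array of a gene, and the dotted line is the brightness limit of 6.77. Replicate 2 (squares) is highest for the interferon and myelin genes shown and lowest for 5 of the 6 astrocyte genes, while the cycle genes lie close together. The genes shown were picked from longer lists. Of the 18 measured myelin genes, 10 were highest in replicate 2 and 4 lowest there, against 26.7% and 28.4% of all measured genes.

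Astrocyte markers spread in nearly the reverse order. Of 20 measured, 15 had a range of at least 1 and 8 a range of at least 2, as did 10 and 5 of the 15 kept. Their mean was 8.64, 7.58, 9.38 and 8.38. Of the 20, 16 were highest in replicate 3 and 16 lowest in replicate 2, when 26.5% and 28.4% of all measured genes were. Mlc1, a membrane protein of astrocyte end-feet, stood at 9.22, 4.76, 10.44 and 7.91, a 51.2-fold span. Slc4a4, a sodium bicarbonate cotransporter, stood at 8.71, 5.44, 10.58 and 8.66. Slc1a3, the glutamate transporter GLAST, stood at 11.13, 9.18, 11.58 and 10.61. All 3 were highest in replicate 3 and lowest in replicate 2, with replicates 1 and 4 between.

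Gene by gene, the astrocyte markers were not one block. Gja1, the gap-junction protein connexin 43, reached 8.71 in replicate 3 and stayed between 3.46 and 5.52 in the others. Aqp4, the water channel, was highest in replicate 1, at 6.53, 3.12, 6.02 and 4.79. Gfap, the intermediate filament of reactive astrocytes, stood at 6.61, 5.36, 7.68 and 5.56. Gja1, Aqp4 and Gfap were below the brightness limit on average, and replicate 2 was the lowest array in each. Slc1a2, the glutamate transporter GLT-1, was high in replicates 3 and 4, at 7.06, 6.96, 9.21 and 8.40. S100b, a calcium-binding protein that oligodendrocyte-lineage cells also make, stood alone in being highest in replicate 2, at 10.58, 12.35, 10.36 and 11.00. Glul, glutamine synthetase, ranged over 0.49, or 1.14 in another bright probe set, and Ndrg2 over 0.37. Without replicate 2, 11 of the 20 had a range of at least 1, and without replicate 3, 12 did.

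Genes of neural stem cells and of the Notch pathway, whose signalling holds progenitors undifferentiated, were low in replicate 2 as well. Of 17 measured stem cell and radial glia markers, 7 had a range of at least 1. Of the 17, 13 were lowest in replicate 2 and 11 highest in replicate 3, when 28.4% and 26.5% of all measured genes were. Of 18 Notch genes, 9 had a range of at least 1 and 10 were lowest in replicate 2, against the same 28.4%. Id4, an inhibitor of DNA-binding factors, stood at 7.26, 5.49, 7.31 and 7.01. Nrarp, a feedback target of Notch, stood at 7.64, 5.76, 8.37 and 7.68, and Notch2, a receptor, at 9.64, 8.43, 10.35 and 9.11. Hes5, the main Notch effector in neural progenitors, stood at 11.35, 10.50, 11.51 and 11.29. In these 4 genes replicate 2 was the lowest array. Dll3, a Notch ligand that acts within the cell, was lowest in replicate 2 at 7.98 and highest in replicate 1 at 9.96. Sox2, a stem cell transcription factor, ranged over 0.18 and Vim, the intermediate filament vimentin, over 0.31. With replicate 2 left out, 2 of the 17 stem cell markers and 5 of the 18 Notch genes had a range of at least 1, and with replicate 3 left out, 3 of the 17 did.

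Of 23 measured genes of neurons and neuroblasts, 10 were highest in replicate 4 and none was lowest there, against 24.3% and 26% of all measured genes. Among the 23, 5 had a range of at least 1, as did 2 of 11 kept, against 9.77% of all measured and 9.67% of all kept genes. In the absence of replicate 2, 3 of the 23 had such a range and none of the kept. Dcx, a microtubule protein of neuroblasts, stood at 8.16, 5.85, 7.67 and 7.78, and Tubb3, a neuronal tubulin, at 6.84, 8.27, 6.85 and 6.95. Replicate 2 was lowest for Dcx and highest for Tubb3.

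Among the 27 lists plotted by SD, each with at least 5 kept members, the interferon-stimulated genes had the highest median SD, 1.35. This value covers only the 15 kept of 44 measured members. Members kept through a high array have to differ, so the rank is no evidence of spread by itself. The promoters of 4 interferon-stimulated genes are shown because these genes moved together across the arrays and because interferon acts on such genes through short motifs. The windows are from RefSeq (build GRCm38.p6), run from 250 bases before to 50 bases after the start of each gene on the plus strand, and were read for 2 motifs on both strands: GAAANNGAAA, the core of the interferon-stimulated response element (ISRE), and TTCNNNGAA, the gamma-activated site (GAS). Capitals mark the ISRE match in Igtp (chr11:58199306-58199605), Irgm2 (chr11:58214727-58215026) and Ifit3 (chr19:34583279-34583578, with 2 matches on the opposite strand), and the GAS match in Irf1 (chr11:53769764-53770063).
Igtp: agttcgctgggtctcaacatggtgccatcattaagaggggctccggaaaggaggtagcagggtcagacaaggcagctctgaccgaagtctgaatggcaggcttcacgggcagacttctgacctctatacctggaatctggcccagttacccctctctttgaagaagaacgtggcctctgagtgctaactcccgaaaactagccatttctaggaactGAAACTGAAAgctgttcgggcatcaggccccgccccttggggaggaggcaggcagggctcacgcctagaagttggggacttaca
Irgm2: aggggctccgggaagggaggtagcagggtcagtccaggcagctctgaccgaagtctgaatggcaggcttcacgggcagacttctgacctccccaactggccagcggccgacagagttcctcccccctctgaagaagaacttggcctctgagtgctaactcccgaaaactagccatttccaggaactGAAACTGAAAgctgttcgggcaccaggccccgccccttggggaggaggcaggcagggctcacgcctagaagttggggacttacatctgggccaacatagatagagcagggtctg
Ifit3: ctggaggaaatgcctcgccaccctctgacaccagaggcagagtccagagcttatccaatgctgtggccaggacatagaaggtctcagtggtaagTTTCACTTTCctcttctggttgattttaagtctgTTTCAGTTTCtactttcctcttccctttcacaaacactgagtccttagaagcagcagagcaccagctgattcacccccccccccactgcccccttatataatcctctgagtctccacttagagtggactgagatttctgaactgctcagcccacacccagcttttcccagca
Irf1: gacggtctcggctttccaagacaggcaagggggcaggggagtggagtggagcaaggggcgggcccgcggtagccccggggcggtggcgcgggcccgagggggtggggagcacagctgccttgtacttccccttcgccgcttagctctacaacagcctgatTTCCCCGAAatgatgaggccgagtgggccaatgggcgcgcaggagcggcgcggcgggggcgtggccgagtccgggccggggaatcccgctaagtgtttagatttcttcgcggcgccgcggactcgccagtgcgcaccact

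Of the 13 kept interferon-stimulated genes with a promoter window, 8 held an ISRE match and 8 a GAS match. Of the 34 measured ones with a window, 18 (52.9%) held an ISRE match and 11 (32.4%) a GAS match. Over all 27025 genes with a window, 1079 (3.99%) held an ISRE and 2582 (9.55%) a GAS match, and in 23 genes matches of both kinds overlapped. Of 31 kept mitosis genes with a window, 2 held an ISRE and none a GAS match. A match is a string of letters in the window and says nothing of a protein bound there.

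Of 44 measured interferon-stimulated genes, 36 had a range of at least 1 and 28 a range of at least 2, against 9.77% and 2.33% of all measured genes. The 15 members bright enough to be kept all had a range of at least 1. Genes that enter that set through 1 high array have to differ, so the comparison rests on the counts over all 44. The list mean was 5.32, 7.68, 6.33 and 5.25. Replicate 2 was highest in 41 of the 44 genes, and in 35 of these replicate 3 was second, an order found in 9.15% of all measured genes. The median gene was 2.28 higher in replicate 2 than in the mean of the other 3 arrays, and 0.80 higher in replicate 3 than in the mean of replicates 1 and 4. Between replicates 1 and 4 the median difference in either direction was 0.26, against 0.19 over all measured genes. Without replicate 2, 21 of the 44 still had a range of at least 1.

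The interferon-induced GTPases, which attack the vacuoles of intracellular pathogens, included the 2 widest spans of the list, those of Iigp1 and Igtp. Igtp stood at 7.62, 11.77, 10.15 and 6.68, a 34.2-fold span, and its neighbour Irgm2 at 5.57, 8.88, 7.73 and 4.91. Iigp1 stood at 6.06, 10.30, 9.00 and 5.14, and Gbp6, of the guanylate-binding family but not a member of the list, at 5.21, 10.18, 7.87 and 4.92. In all 4 genes replicate 2 was highest, replicate 3 next, then replicate 1, and replicate 4 lowest. Gbp7 followed the same order with a range of 2.41. The antiviral effectors Ifit3 and Rtp4 stood at 5.59, 9.00, 7.40 and 5.68 and at 5.47, 9.07, 7.25 and 5.55. Eif2ak2, the kinase PKR that stops translation on double-stranded RNA, stood at 7.58, 9.06, 8.66 and 7.16. Irf1, a transcription factor induced early, stood at 6.95, 9.33, 8.09 and 7.29. Each of these again had its 2 highest values in replicates 2 and 3.

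The feedback gene Usp18 and 3 chemokines were highest in replicate 2. Usp18, a protease that restrains interferon signalling, stood at 3.83, 8.07, 5.73 and 3.94. Cxcl10, a chemokine for T cells, stood at 5.13, 8.60, 8.09 and 4.79, with replicates 2 and 3 nearly alike. Its relative Cxcl11 stood at 3.53, 7.34, 4.42 and 3.39 and Cxcl9 at 3.54, 5.29, 3.07 and 3.49, both high in replicate 2 alone. Usp18 and the 3 chemokines were below the brightness limit on average, so their folds are compressed. The 3 interferon-stimulated genes not highest in replicate 2 were Oasl1, Oas2 and Socs1, which lay between 4.37 and 5.39 in every array, with ranges of 0.18 to 0.60.

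**Figure D3:**
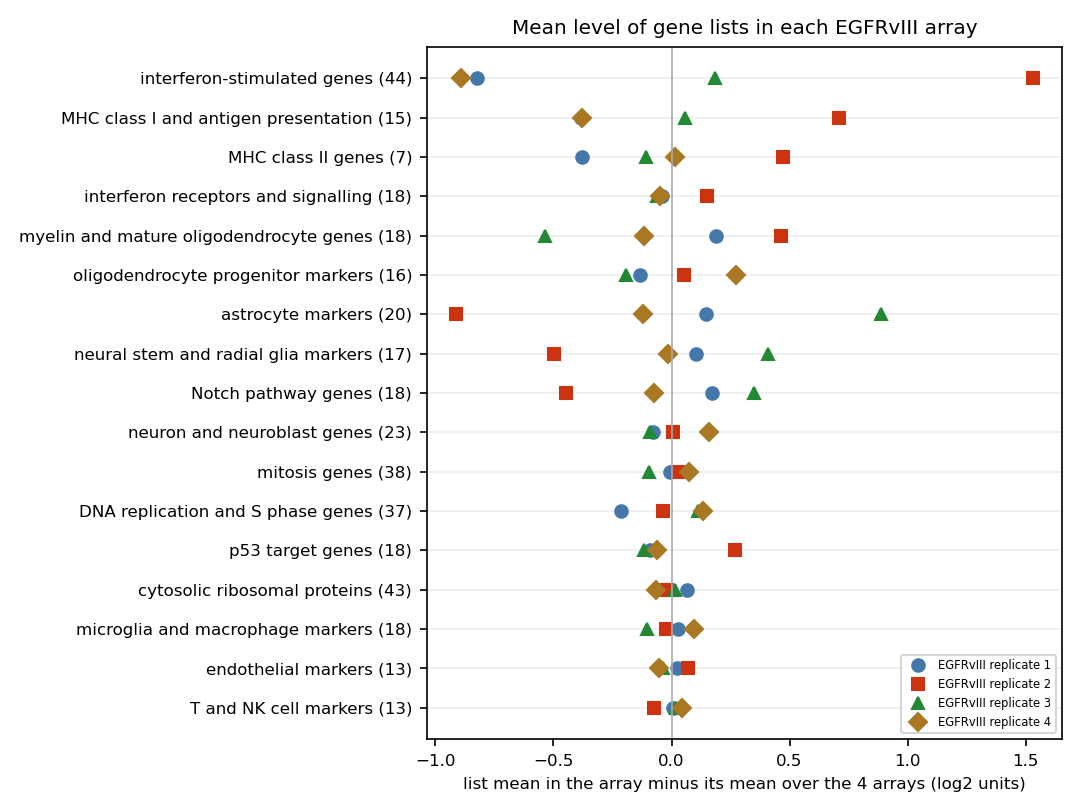
Mean level of each gene list in each EGFRvIII array, minus the mean of the list over the 4 arrays (log2 units); the number of measured members is in brackets and the vertical line is 0. Interferon-stimulated genes lie furthest out in replicate 2 (list mean 7.68, against 5.25 to 6.33 in the others), astrocyte markers and myelin genes take opposite sides in replicates 2 and 3, and mitosis genes, ribosomal proteins and markers of microglia, endothelium and T and NK cells lie close to 0.

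Genes of MHC class I antigen presentation had the same order at a smaller scale. Of 15 measured, 9 had a range of at least 1, and 4 had such a range without replicate 2. Of the 15, 13 were highest in replicate 2, when 26.7% of all measured genes were. H2-D1, a class I heavy chain, stood at 8.05, 10.99, 9.10 and 8.06. B2m, the light chain that all class I molecules share, stood at 11.12, 12.84, 11.93 and 11.12. Replicates 1 and 4 were nearly equal in both genes, and replicates 2 and 3 lay above them. Psmb8, an immunoproteasome subunit counted among the interferon-stimulated genes, stood at 5.55, 9.09, 7.03 and 5.96, whereas no constitutive proteasome subunit described above reached a range of 1. Tap1, a subunit of the peptide transporter, ranged over 1.01. Calr and Pdia3, chaperones that load class I molecules and serve other proteins too, ranged over 0.20 and 0.13. Class I genes resemble each other, and their probe sets may read more than one of them.

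The receptors and signal carriers of interferon varied less than their targets, but not less than genes in general. Of 18 measured, 2 had a range of at least 1 (1 without replicate 2, and 1 without replicate 4). This count is near the share of 9.77% over all measured genes. None of the 9 kept had such a range, and their median SD was 0.26, against 0.19 over all kept genes. Ifnar1 and Ifnar2, the receptor for type I interferons, ranged over 0.21 and 0.55 (1.24 in another bright probe set of Ifnar2), and Ifngr2, a chain of the interferon gamma receptor, over 0.33. The interferon genes Ifng and Ifnb1 stayed between 3.19 and 4.46 in every array. Irf8, an interferon regulatory factor, was the widest, at 4.48, 7.52, 4.98 and 5.79, highest in replicate 2. The mean of the 18 was 7.0 in replicate 2 and 6.79 to 6.81 in the others.

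The interferon-induced transmembrane proteins did not follow the battery. Ifitm3, which blocks the fusion of viruses in endosomes, stood at 10.84, 11.31, 12.14 and 9.10, and its neighbour Ifitm2 at 8.41, 6.83, 9.23 and 6.42. Both were highest in replicate 3 and lowest in replicate 4. The other 3 measured members of the family had ranges of 0.34 to 0.88.

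Markers of other cells gave the following values beside these results. None of 18 measured microglia and macrophage markers was kept, and their mean was 4.42, 4.37, 4.29 and 4.49. Aif1, the microglial protein IBA1, lay between 3.34 and 3.63, the pan-leukocyte gene Ptprc between 2.89 and 3.12, and Cx3cr1 between 4.21 and 4.55. Each of these 3 ranged over less than 0.35, and Aif1 and Cx3cr1 were highest in replicate 2. A dimmer probe set of Cx3cr1 was highest in replicate 3. Of the 18, 5 were highest in replicate 2 and 8 in replicate 4, when 26.7% and 24.3% of all measured genes were. The part of microglia and macrophages in the interferon result was not tested. None of 13 endothelial markers was kept, with means of 4.48, 4.52, 4.42 and 4.40, and Pecam1 lay between 3.91 and 4.15. Of 13 T and NK cell markers 1 was kept, Prf1, which ranged over 0.18 at a mean of 9.13. The other probe set of Prf1 had a mean of 4.27, below the brightness limit, so the signal of this gene is uncertain. The T and NK cell marker means were 4.65, 4.57, 4.67 and 4.69, and Cd3e lay between 4.43 and 4.89. None of 14 pericyte and fibroblast markers was kept, with means of 4.62, 4.94, 4.65 and 4.73. Among these, Postn, a secreted matrix protein, stood at 3.80, 6.62, 3.60 and 3.84, high in replicate 2 alone.

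MHC class II genes, which professional antigen-presenting cells express and interferon gamma can induce elsewhere, were dim. None of 7 measured was kept, and their mean was 4.53, 5.38, 4.80 and 4.92. H2-Aa stood at 3.87, 5.34, 4.15 and 4.09, highest in replicate 2, and Ciita, their transactivator, at 4.58, 4.84, 4.47 and 4.85. The part of class II-expressing cells in the interferon result was not tested. Of 5 red blood cell genes, Hba-a2 stood at 11.42 to 11.57 in every array and the other globins, Hba-a1 and Hbb-b2, at 3.25 to 4.33. Replicates 1 and 2, alike in Xist, had interferon list means of 5.32 and 7.68, and replicates 3 and 4 of 6.33 and 5.25. The astrocyte means were 8.64 and 7.58 in the first pair and 9.38 and 8.38 in the second. For DNA replication and S phase genes they were 8.57 and 8.75 in the first pair and 8.90 and 8.92 in the second. The part of sex-linked differences in these results was not tested.

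Receptor tyrosine kinases and their ligands, the family to which the driver belongs, spread widely. Of 27 measured, 11 had a range of at least 1, as did 10 of the 14 kept, and the kept members had a median SD of 0.57. In the absence of replicate 3, 5 of the 27 had such a range. Egfr stood at 7.68, 6.17, 8.78 and 7.74, and 2 further probe sets gave the same highest and lowest arrays with ranges of 2.54 and 3.05. Fgfr2, a receptor for fibroblast growth factors, stood at 8.48, 5.71, 8.54 and 7.09, and Fgf1, a ligand, at 7.0, 5.98, 8.71 and 7.02. Replicate 2 was the lowest array in all 3. Erbb3, the receptor for neuregulins, ran differently, at 7.79, 10.39, 9.23 and 9.41, highest in replicate 2 and lowest in replicate 1. Hbegf, a ligand of the epidermal growth factor receptor, was highest in replicate 3 at 8.92, against 7.09 to 7.65 in the others. The labels and files do not tell whether any Egfr probe set reads the EGFRvIII transgene.

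Genes induced through ERK, the kinase below these receptors, varied less than the receptors and ligands. Their kept members had a median SD of 0.26, against 0.57 for the receptors and ligands and 0.19 for all kept genes. Of 14 measured feedback and target genes, 4 had a range of at least 1, against 9.77% of all measured genes. So did 2 of 11 kept, against 9.67% of all kept genes. Leaving out replicate 1 or replicate 3 left 2 of the 14. Spry2 and Spred1, inhibitors of the pathway, ranged over 0.11 and 0.13. Other bright probe sets ranged over 0.56 for Spry2 and over 0.48 and 0.44 for Spred1. Ier3, an immediate response gene, stood at 7.97, 10.00, 8.40 and 8.49 and Phlda1 at 10.00, 11.46, 10.77 and 11.04. Both were highest in replicate 2 and lowest in replicate 1. Of the 14 genes, 9 were highest in replicate 3, when 26.5% of all measured genes were.

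The cells had been dissociated with trypsin and sorted, so genes of immediate early transcription and dissociation stress, which respond quickly to handling, were examined. Of 26 measured, 11 had a range of at least 1 (4 without replicate 2). Of the 26, 17 were highest in replicate 2, when 26.7% of all measured genes were. The list mean was 8.10, 8.51, 8.07 and 7.95. Egr2, an early growth response factor, stood at 9.71, 11.32, 9.60 and 10.89, and Fosb, a partner in the AP-1 factor, at 9.13, 10.23, 8.69 and 8.78. Ccn1, a matrix-associated target, was the opposite, at 10.52, 8.23, 10.64 and 9.83. Replicate 2 was highest for the first pair and lowest for the last. Replicate 2 was also the array highest in interferon-stimulated genes, and the part of handling in that result was not tested.

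Metabolic and stress programmes held a middle position. Over all measured genes, 9.77% had a range of at least 1. Of 22 genes of cholesterol and fatty acid synthesis, 1 had a range of at least 1, the regulator Srebf1, at 7.88, 8.49, 7.54 and 7.37. Of 23 genes of hypoxia and glycolysis 5 did, with Bnip3, a mitochondrial protein induced by low oxygen, at 9.42, 8.60, 8.28 and 7.72, highest in replicate 1. Of 22 lysosome genes 2 did, a count near the share over all measured genes. These were Gaa and Hexa, enzymes of glycogen and ganglioside breakdown. Both were highest in replicate 2, at 8.31 and 9.50. Another bright probe set of Gaa was highest in replicate 4, with a range of 0.63. Of 22 genes of the unfolded protein response 4 had a range of at least 1, and Creld2 stood at 8.86, 10.06, 9.37 and 9.18. Leaving out replicate 2 left 2 of the 23 hypoxia genes, none of the 22 lysosome genes and 1 of the 22 unfolded protein response genes with such a range, and leaving out replicate 1 left none of either of the last 2 lists. These lists had median SDs of 0.16, 0.29, 0.21 and 0.24, against 0.19 over all kept genes.

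Matrix and mesenchymal genes spread in 2 patterns. Of 26 measured, 13 had a range of at least 1 and 5 a range of at least 2; without replicate 2, or without replicate 4, 8 had a range of at least 1. Col4a1, a collagen of basement membranes, stood at 6.29, 9.34, 7.15 and 6.93, highest in replicate 2. Anxa2, a membrane-binding annexin, stood at 8.07, 7.28, 9.01 and 6.12, and Lgals1, the lectin galectin 1, at 11.01, 11.63, 11.87 and 9.14. Both were highest in replicate 3 and lowest in replicate 4. Plat, a plasminogen activator, shared that pattern with a range of 1.67.

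**Figure D4:**
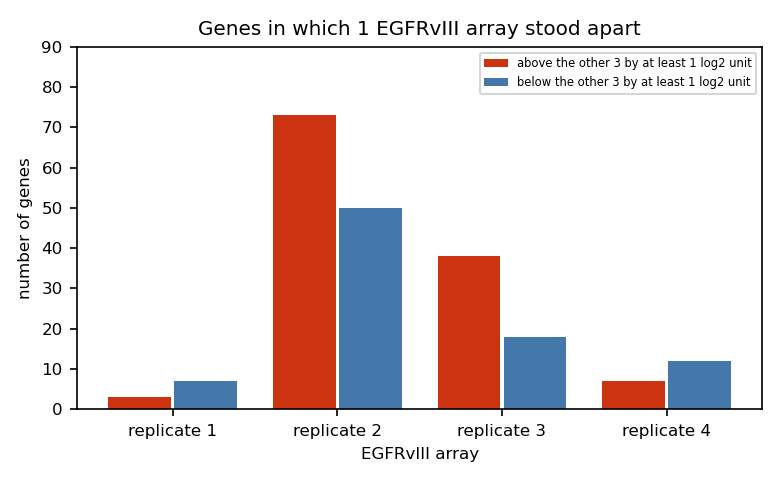
Number of kept genes in which 1 EGFRvIII array lay at least 1 log2 unit above (red) or below (blue) the other 3. Replicate 2 has the most genes on either side, 73 above and 50 below, followed by replicate 3 with 38 and 18; replicates 1 and 4 have 12 or fewer on a side.

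In 208 kept genes 1 array lay at least 1 log2 unit away from the nearest of the other 3. Replicate 2 was that array in 123 of them, above the others in 73 genes (1.14% of kept genes) and below them in 50 (0.78%). Replicate 3 was above in 38 (0.593%) and below in 18 (0.281%). Replicate 4 was above in 7 (0.109%) and below in 12 (0.187%), and replicate 1 above in 3 (0.0468%) and below in 7 (0.109%). Most of the 208 genes thus belonged to replicate 2.

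In replicate 2, Syt4, a synaptotagmin of secretory vesicles, stood at 11.88, against 4.94 to 7.33 in the others. Ptgds, the prostaglandin D2 synthase that maturing oligodendrocytes also make, stood at 13.11, against 9.76 to 10.04, and Serpina3n, a secreted protease inhibitor, at 9.50, against 5.83 to 6.75. Low there alone were Pcp4, a calmodulin regulator, at 5.57 against 9.74 to 10.12, and Tmem47, a junction protein, at 4.31 against 7.73 to 9.01. Selenop, the selenium transport protein, had a 116-fold span, at 10.06, 3.66, 10.52 and 6.85. Gstm1, a glutathione transferase, stood at 8.95, 5.23, 10.05 and 7.99 and Gpc4, a glypican, at 8.96, 5.62, 10.52 and 8.47. These 3 genes had the array order of the astrocyte markers Mlc1 and Slc4a4. With Xist, Syt4, Gbp6, Mlc1, Iigp1, Igtp, Tmem47, Pcp4 and Slc4a4, they make up the 12 kept genes with the largest SD.

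The other arrays had smaller sets. Mest, an imprinted gene of the hydrolase family, reached 12 in replicate 3, against 8.53 to 9.48, and Kitl, the ligand of the receptor KIT, 8.85, against 5.66 to 6.51. Low in replicate 3, beside Cldn11, were Dock9, an activator of Cdc42, at 8.48 against 9.89 to 10.50, and Brinp1 at 6.52 against 7.92 to 8.58. Replicate 4 was low in Lgals1 and Ifitm3, described above, and in Cd24a, a surface glycoprotein, at 6.87 against 8.43 to 9.48. It was high in Lypla2, a depalmitoylating enzyme, at 9.44 against 7.64 to 8.09, in Pter, at 8.43 against 6.18 to 7.12, and in Slain1, a microtubule regulator, at 9.01 against 7.62 to 7.81. Another bright probe set of Slain1 ran the other way, lowest in replicate 4 with a range of 0.95. A further one was highest in replicate 4 with a range of 0.25. Replicate 1 was low in Tent5c, an RNA-tailing enzyme, at 5.46 against 7.65 to 8.25, in Eya1, a developmental phosphatase, at 5.62 against 7.48 to 7.97, and in Dlc1, at 5.42 against 7.09 to 8.46. It was high in Dll3, in Usp20, at 8.40 against 7.15 to 7.40, and in Tle4, a co-repressor, at 10.69 against 9.49 to 9.67.

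The spread was seen again by other probe sets of the same genes. Of 191 genes with a range of at least 1 and a second probe set above the brightness limit, the second also had a range of at least 1 in 142 (74.3%). It named the same highest array in 158 (82.7%) and the same lowest array in 146 (76.4%). Of 2373 genes with a smaller range, the second probe set had a range of at least 1 in 73 (3.08%). Both probe sets were read on the same array from the same RNA, so they bear on the measurement and not on differences between animals. Among the named genes with a range of at least 1, Srsf1, Ccnd2, Pdgfra, Sox9, Slain1, Gaa and Igf2r each had at least 1 other bright probe set with a range under 1.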

How the data were processed

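The authors deposited RMA intensities on the log2 scale, 1 value per probe set and array, made with affy 3.4.2 per the submitters' processing notes. The log base was read from their range of 2.22 to 14.08 over the 4 EGFRvIII arrays. The values stood in 2 tables, equal to within 5e-09. Detection calls were not used. Of 22690 probe sets, 64 were controls and were left out. By the platform annotation, 20380 of the rest had 1 gene symbol, 691 more than 1, and 1555 had none. Entrez identifiers gave current symbols for 20351 of the 20380. The brightest probe set by its mean over the 4 EGFRvIII arrays stood for each of 12393 genes, and genes with a mean above 6.77 were kept.

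SD (n = 4), range and the order of the arrays were computed per gene and summarised for 36 gene lists. With 1 group there was no comparison to test, so no p-value is given. The members and lists were chosen with earlier results of these data known. Some list members are not analysed here. The genes named are the 12 with the largest SD, the 10 with the smallest SD among the 1283 brightest, the 3 furthest above and below in each array, up to 4 members with the widest range and the steadiest member of each list, any member of the glial, interferon, cycle and sex-linked lists, Egfr and Cdkn2a. Markers of other cells, Spred1, some dim cytokines and neighbouring gene pairs were named after their values were seen. Alternatives were the other table, centring, quantile normalization, other filters, other choices of probe set, and each array left out. The counts were tested on simulated data. Promoter windows are from RefSeq (GRCm38.p6). The work used Python 3.11.15, numpy 2.4.6, pandas 2.3.3, scipy 1.17.1 and matplotlib 3.10.9.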

Additional observations from a re-analysis of the deposited data

Results flagged for a closer look

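Among 202 values checked, which were the 167 named genes and the means of the gene lists, 1 array lay far from the other 3 in 15, by Dixon's ratio of the gap to the whole range at its 95% critical value. Chance alone gives about 1 in 20, but many of these genes were named for their spread or for 1 array standing apart, so the count is not a test against that rate. That array was replicate 2 in 11 of them.

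Glial and neural genes were among them. In replicate 2, Tubb3 was high at 8.273, against 6.844 to 6.951 in the others, and Ptgds was high at 13.108, against 9.764 to 10.045. Id4 was low there at 5.489, against 7.008 to 7.310, and Pcp4 at 5.574, against 9.743 to 10.125. In the same array the receptor gene Igf2r was high at 8.635, against 7.145 to 7.358, the stress gene Gadd45a at 8.759, against 7.325 to 7.565, the matrix gene Postn at 6.624, against 3.599 to 3.841, and the chemokine Ccl5 at 6.387, against 5.085 to 5.236. Csf2, a cytokine near the floor, was low there at 3.746, against 3.881 to 3.899. The mean of interferon receptors and signalling genes was 7.0 in replicate 2, against 6.789 to 6.808, and the mean of p53 target genes was 8.133, against 7.749 to 7.806.

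In the other arrays 4 genes were set apart. Tle4 was high in replicate 1 at 10.694, against 9.492 to 9.674, and Slain1 in replicate 4 at 9.015, against 7.616 to 7.806. Another bright probe set of Slain1 was lowest in replicate 4. Snx12 was highest in replicate 4 at 10.694, against 10.653 to 10.660, and Cdkn2a lowest in replicate 3 at 3.703, against 3.776 to 3.784, gaps of a few hundredths of a log2 unit.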

How the results depend on the processing

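No paired analysis was possible because the results come from 1 group and no test. Of 144 counts recomputed under other settings, 125 stayed within 1.5 times the value given. The other deposited table, centring, quantile normalization, a filter asking for 2 bright arrays, averaging the probe sets of a gene and a probe set chosen over all 6 arrays moved none of them beyond that. With no filter on dim genes, 1211 genes had a range of at least 1, 289 a range of at least 2 and 430 had 1 array apart, and 36 interferon-stimulated genes had a range of at least 1; more genes enter here by construction. Among genes in the top 25% by brightness these counts were 206, 36, 56 and 1, with 3 MHC class I genes, 5 myelin genes and 3 astrocyte markers; fewer genes enter here. Leaving out 1 array at a time gave 327 to 534 genes with a range of at least 1 and 39 to 127 with a range of at least 2, lowest without replicate 2 in both. It gave 162 to 345 genes with 1 array apart, highest without replicate 1 (318 without replicate 4). Among kept members of the lists, it gave 5 to 19 interferon-stimulated genes and 3 to 6 MHC class I genes (lowest without replicate 2), 4 to 8 myelin genes (lowest without replicate 3) and 1 to 3 progenitor markers (lowest without replicate 4). With the filter applied anew to 3 arrays, several interferon-stimulated genes fell below it. The median SD of each of the 27 lists, relative to all genes, stayed within 1.5 times when taken relative to genes of like brightness. Of the ranges of named genes, centring moved 17, the mean of probe sets 24 and quantile normalization 2, of 167, by more than the spread of the gene; leaving out replicates 1, 2, 3 and 4 in turn moved 22, 54, 31 and 21. With no counts or depth in array data, precision is limited by the number of arrays and, for dim genes, by signal close to background.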

Other observations

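Secreted signals that the cells could send to their surroundings were mostly dim, and the bright ones did not share an order. Of 29 measured chemokines and cytokines, 9 had a range of at least 1 (5 without replicate 2) and 5 were kept, 2 of them with such a range. Tgfb2, a growth factor of the transforming growth factor family, stood at 6.94, 6.86, 8.79 and 7.24, high in replicate 3 alone. Cxcl14, a chemokine, stood at 7.21, 8.25, 6.94 and 8.23, high in replicates 2 and 4. Ccl2, the main attractant of monocytes, was dimmer, at 5.48, 6.80, 6.19 and 5.56, and Ccl5, an attractant of T cells, stood at 5.08, 6.39, 5.24 and 5.10. Both were highest in replicate 2 and second in replicate 3. The cytokine genes Il6, Il1a and Csf2 stayed between 2.84 and 3.90 in every array.

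Some genes that lie next to each other in the genome shared an array, and 3 such pairs were chosen after their values were seen. Copg2, a coatomer subunit next to the imprinted Mest, stood at 6.33, 6.28, 8.30 and 6.84, highest in replicate 3 as Mest was. The annotated ends of these 2 genes overlap, so their signals may not be separate. Col4a2, which shares a promoter region with Col4a1, stood at 4.72, 6.78, 5.71 and 5.02, highest in replicate 2 as Col4a1 was. Airn, an imprinted non-coding RNA that overlaps Igf2r and is known in mice to silence it on 1 parental copy, stood at 7.42, 5.66, 7.11 and 7.09. Igf2r, the receptor that clears insulin-like growth factor 2, stood at 7.36, 8.63, 7.36 and 7.15, or 7.01, 7.64, 7.08 and 6.70 in its other probe set. In replicate 2 Airn was thus lowest and Igf2r highest. Replicate 2 was also the array set apart in 123 of the 208 kept genes with 1 array apart.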
